A study of Mus musculus with 2 samples.

Results

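The 10 genes described here encode transcription factors of epidermal differentiation: Grhl1, Grhl2, Grhl3, Ovol1, Ehf, Elf3, Hopx, Klf5, Cebpa and Cebpb. They were taken by name, and every probe set that the array's annotation assigns to exactly 1 of them was kept, which gave 21 of 34958 such probe sets and 10 of 18194 genes. Earlier results of these data were known when the members and the other gene lists were chosen. Their counts beside the shares of all genes are therefore a description only. Expression was measured in CD34-positive epithelial cells sorted from mouse skin tumours, with 1 array labelled VEGF, from a K14CreER:Rosa-VEGF-164 mouse, and 1 array from a wild-type mouse. The VEGF genotype carries CreER, a drug-inducible Cre recombinase, and a VEGF-164 transgene in the Rosa locus. CreER is driven by the keratin 14 promoter, which is active in basal keratinocytes. Both genotypes received the carcinogen DMBA on postnatal days 23, 25 and 27, then TPA, a phorbol ester that promotes tumour growth, for some weeks, and DMBA again at 7 weeks of age. How many animals or tumours were combined for an array is not given in the sources used here, and an inducing drug is not mentioned in them. With 1 array per genotype no difference below has a replicate check, a test or a p-value.

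A stratified epithelium renews from basal cells that divide, leave the basement membrane and build a cornified envelope as they move outward. Grainyhead-like factors (the Grhl genes) bind enhancers of junction and barrier genes, and Grhl3 is required in mouse for the skin barrier. Ovol1 is a zinc finger repressor of differentiating cells, and Ehf and Elf3 are ETS factors of epithelia. C/EBPα and C/EBPβ (Cebpa and Cebpb) act as cells stop dividing and enter the suprabasal layers. Klf5 is a Krüppel-like factor of basal and proliferating epithelial cells, and Hopx is a small homeodomain protein that does not bind DNA itself.

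The members did not move as a block. By their brightest probe sets, Grhl3 was 4.19-fold and Ehf 2.43-fold higher on the array labelled VEGF, and Cebpb was 2.16-fold lower there. The other 7 genes were less than 2-fold apart by theirs. Ovol1 and Elf3 had ratios of 1.72 and 1.53 on the higher side, also short of 2-fold. The 2 higher genes of 10 stand beside 3.87% of 12195 genes that were at least 2-fold higher, and the 1 lower gene beside 8.54% that were at least 2-fold lower. Every log2 ratio here sets the array labelled VEGF over wild type. The members' median log2 ratio was 0.37, where that of all genes was -0.04. A ratio above 0 was found for 7 of the 10 members and for 47.1% of all genes. The 7 include Klf5, at 0.12 by its brightest probe set, where another gave -1.16, and no direction is given for it below. Counted by probe set, 4 of the 19 with a ratio were at least 2-fold higher and 2 lower, beside 3.53% and 10.3% of 21521 probe sets.

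The sequences just before the start sites of Grhl3 and Cebpb are shown because these were the members with the highest and the lowest ratio. They are the 250 bases before the start of each gene on its own strand, from RefSeq on GRCm38.p6: chr4:135573633-135573882 (minus strand) for Grhl3 and chr2:167688665-167688914 (plus strand) for Cebpb. Capitals mark CCACCC, the box that Krüppel-like factors bind, or its reverse complement.
Grhl3: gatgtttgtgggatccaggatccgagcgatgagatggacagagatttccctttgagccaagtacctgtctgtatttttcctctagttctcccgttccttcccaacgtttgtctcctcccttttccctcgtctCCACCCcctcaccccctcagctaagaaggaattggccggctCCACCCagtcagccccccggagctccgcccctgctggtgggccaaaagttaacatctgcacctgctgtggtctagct
Cebpb: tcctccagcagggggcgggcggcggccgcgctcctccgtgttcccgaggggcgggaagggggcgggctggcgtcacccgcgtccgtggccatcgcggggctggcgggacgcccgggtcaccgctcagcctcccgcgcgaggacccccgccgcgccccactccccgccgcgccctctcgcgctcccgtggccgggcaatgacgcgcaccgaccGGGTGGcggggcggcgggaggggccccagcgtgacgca
The Grhl3 window held the box on the given strand, beginning 118 and 77 bases before the start, and the Cebpb window held it once, on the opposite strand, 38 bases before the start. G and C made up 56.0% of the Grhl3 window and 81.6% of the Cebpb window, against a median of 52.4% over 32851 promoter windows. The promoter table held 8 windows for 6 of the members (Grhl1, Grhl3, Elf3, Hopx, Cebpa and Cebpb), and 5 of the 8 held the box, as did 28.1% of all windows. On either strand, none of the 8 windows held AACCNGTT, the grainyhead motif (1.79% of all windows), TTGCNNAA, a C/EBP motif (9.56%), CCGGAAGT, an ETS motif (2.88%), or CCGTTA, the core bound by Ovol1 (2.18%). No match overlapped another in the 8 windows. A match or its absence describes the letters of the window and nothing further.

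The values are log2 signals from MAS5, which summarises each probe set by itself on each array. A background level was set on each array from 80 probe sets of smell and pheromone receptor genes, at a signal of 11.3 on the array labelled VEGF and 19.9 on the wild-type array. Of the 21 member probe sets, 20 lay above background on the array labelled VEGF and 18 on the wild-type array. The bacterial poly(A) transcripts added to the RNA as controls were lower on the array labelled VEGF in 24 of 24 probe sets, with a median log2 ratio of -0.90, and the hybridisation controls in 18 of 18, with a median of -0.50. Scaling to the poly(A) controls would add 0.90 to every log2 ratio and take the median of all genes to 0.86. Directions below are therefore relative to the bulk of genes, as the deposited scale gives them. The signal at the 3′ end over that at the 5′ end was 0.91 on the array labelled VEGF and 1.15 on the wild-type array for Gapdh, and 1.45 on the array labelled VEGF and 2.01 on the wild-type array for Actb. Vegfa, the gained gene, had a signal of 397 on the array labelled VEGF and 804 on the wild-type array. Which part of the transcript its probe sets read is not known here, so they do not check the label. The basal keratinocyte markers Krt5, Krt14, Itga6, Itgb4, Trp63 and Col17a1 were all above background on both arrays, and 0 of the 6 were 2-fold apart by their brightest probe sets, although the other Trp63 probe sets gave log2 ratios between -2.52 and -0.37. Cd34 had a signal of 751 on the array labelled VEGF and 430 on the wild-type array.

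**Figure D1:**
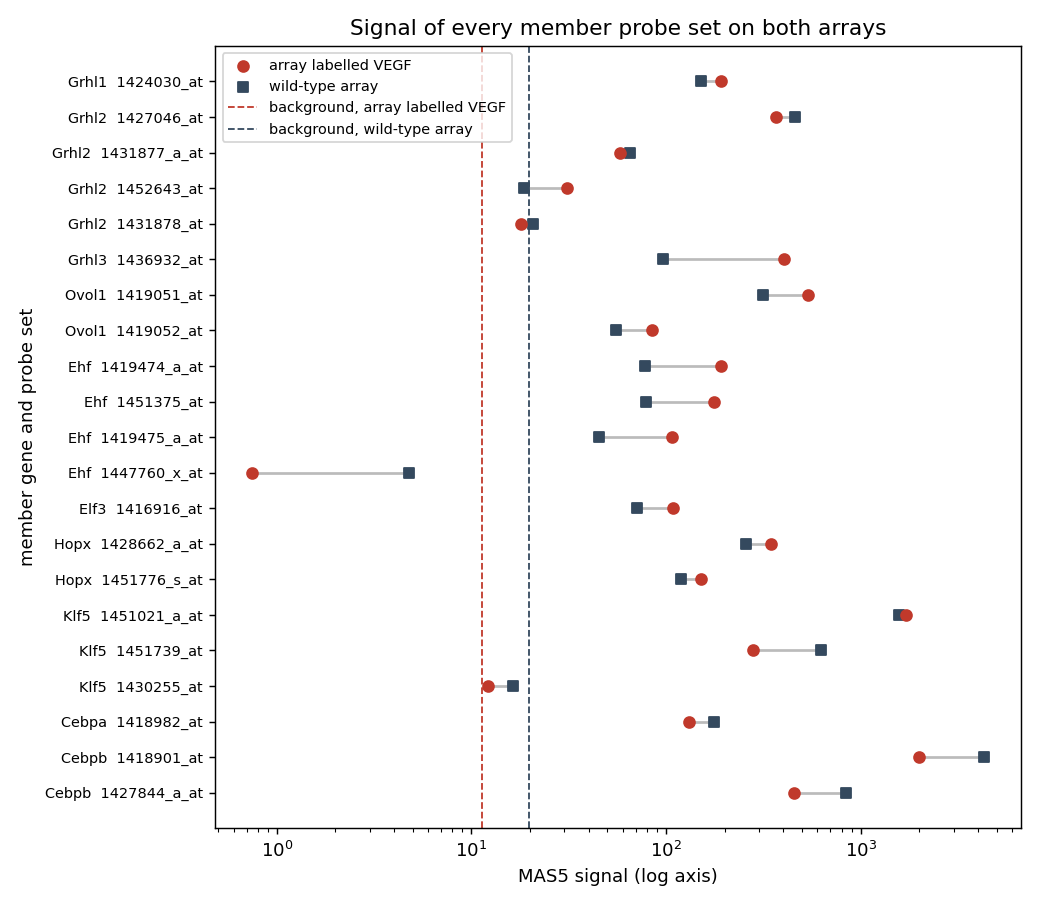
MAS5 signal, on a log axis, of each of the 21 member probe sets, with a circle for the array labelled VEGF and a square for the wild-type array, and dashed lines for each array's background (11.3 on the array labelled VEGF and 19.9 on the wild-type array). The circles of Grhl3, Ovol1 and the first 3 Ehf probe sets lie right of their squares, and those of Cebpb left of theirs. The last Ehf probe set lies below both lines.

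The grainyhead-like genes differed from each other. Grhl3 had a signal of 402 on the array labelled VEGF and 96.1 on the wild-type array (probe set 1436932_at), a log2 ratio of 2.07. It has only this probe set, so no second reading of the gene was at hand. Grhl1, known in mouse skin for desmosomal cadherin genes, had a signal of 191 on the array labelled VEGF and 152 on the wild-type array (1424030_at), a log2 ratio of 0.32. Grhl2, which maintains E-cadherin and claudin expression in epithelia, was read by 4 probe sets. The brightest had a signal of 369 on the array labelled VEGF and 461 on the wild-type array (1427046_at, log2 ratio -0.32), and the next 58.1 on the array labelled VEGF and 65.3 on the wild-type array (1431877_a_at, -0.17). Near background, 1431878_at had 17.9 on the array labelled VEGF and 20.6 on the wild-type array (-0.20). The last, 1452643_at, had 31.0 on the array labelled VEGF and 18.7, below background, on the wild-type array, at least 1.56-fold higher. The Grhl2 probe sets thus fell on both sides of 0, and the 3 above background on both arrays were less than 2-fold apart.

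How far a single probe set can be relied on was gauged from genes read more than once. The 2 brightest probe sets were compared in 4887 genes that had them above both backgrounds. From their disagreement, 1 reading of a log2 ratio had an SD of 0.50 for dim genes (the lowest tertile by signal), 0.42 for the middle tertile and 0.32 for bright genes. This SD holds no spread between animals, tumours or sorts. The Grhl3 ratio was 4.95 times the SD of its tertile, and that of Grhl1 was 0.78 times its own, while that of Grhl2 was just under 1 SD in size.

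Of the ETS factors, Ehf was higher by each of its 3 probe sets above background. The probe set 1419474_a_at had a signal of 191 on the array labelled VEGF and 78.5 on the wild-type array (log2 ratio 1.28). By 1451375_at the signals were 176 on the array labelled VEGF and 79.2 on the wild-type array (1.15), and by 1419475_a_at they were 108 on the array labelled VEGF and 45.1 on the wild-type array (1.26). These 3 readings lay within 0.13 of each other on the log2 scale. The remaining one, 1447760_x_at, had signals of 0.75 on the array labelled VEGF and 4.77 on the wild-type array, below background on both arrays, and gives no ratio. Elf3, the nearest relative of Ehf among the members, had a signal of 109 on the array labelled VEGF and 71.1 on the wild-type array (1416916_at, log2 ratio 0.62), 1.48 times the SD of its tertile.

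Ovol1 was higher by both of its probe sets, short of 2-fold. It had a signal of 538 on the array labelled VEGF and 313 on the wild-type array by 1419051_at (log2 ratio 0.78, or 2.43 times the SD), and 84.6 on the array labelled VEGF and 55.4 on the wild-type array by 1419052_at (0.61). Its paralogue Ovol2, which is no member, was 2.32-fold higher at low signal, 79.3 on the array labelled VEGF and 34.2 on the wild-type array.

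Hopx was slightly higher by both probe sets, with 347 on the array labelled VEGF and 258 on the wild-type array by 1428662_a_at (log2 ratio 0.43), and 152 on the array labelled VEGF and 119 on the wild-type array by 1451776_s_at (0.35). In mouse skin Hopx is also known as a marker of hair follicle stem cells. Of 8 follicle markers with a ratio, 7 were at least 2-fold lower and 0 higher, beside 8.54% and 3.87% of all genes. The summed signal over 9 follicle markers was 1592 on the array labelled VEGF and 4337 on the wild-type array. Among the lower ones were Lhx2 (11.0-fold lower), Lgr5 (3.94-fold), Shh (3.13-fold), Nfatc1 (2.88-fold), Krt15, a bulge keratin gene (2.81-fold), and Sox9 (2.07-fold). Shh and Krt27 had signals of only 11.6 and 12.2 on the array labelled VEGF, below the wild-type background of 19.9. With that background on both arrays they would fall short of 2-fold. The other Nfatc1 probe sets gave log2 ratios between -1.34 and 0.04. Whether follicle cells have a part in the Hopx value was not tested. In a sorted population such as this, fewer cells of a type and less RNA per cell cannot be told apart.

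The Klf5 probe sets contradicted each other. By the brightest, 1451021_a_at, Klf5 had a signal of 1704 on the array labelled VEGF and 1568 on the wild-type array, a log2 ratio of 0.12. By 1451739_at it had 280 on the array labelled VEGF and 624 on the wild-type array, 2.23-fold lower. The difference of 1.28 between these ratios is large for bright probe sets of 1 gene, since 23 of 1629 genes of the highest tertile (1.41%) had their 2 brightest probe sets as far apart or farther. A further probe set, 1430255_at, had signals of 12.2 on the array labelled VEGF and 16.3 on the wild-type array, lay above background on the VEGF side alone, where the level is lower, and gives no ratio. No direction is given for Klf5.

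Cebpb, unlike Grhl3 and Ehf, was lower on the array labelled VEGF by both of its probe sets. It had a signal of 1993 on the array labelled VEGF and 4298 on the wild-type array (1418901_at, log2 ratio -1.11), and 457 on the array labelled VEGF and 837 on the wild-type array by 1427844_a_at (-0.87), which on its own is 1.83-fold lower. These ratios were 3.45 and 2.71 times the SD of their tertile. Cebpa had a signal of 131 on the array labelled VEGF and 176 on the wild-type array (1418982_at, log2 ratio -0.42), 1.02 times the SD. The call on Cebpb was the least firm of the 3. Its ratio was -0.99 as the median of its probe sets and -0.21 when scaled to the poly(A) controls. It was -0.71 with the array medians matched and an offset of 50 then added to the signals. The matching raises every signal of the array labelled VEGF, and the offset of 50 named below always includes it.

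**Figure D2:**
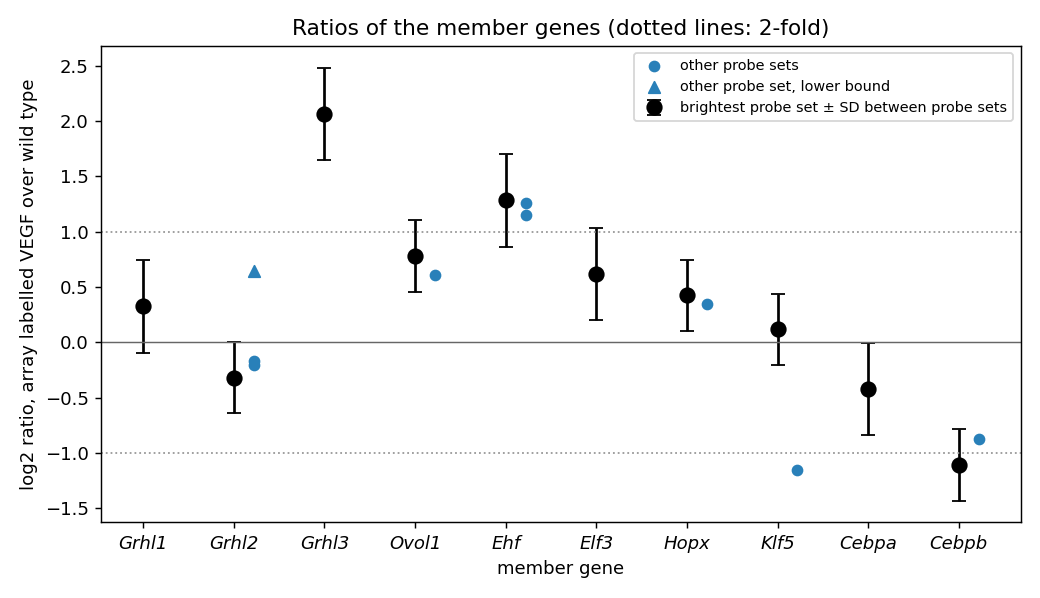
Log2 ratio of each member gene, the array labelled VEGF over wild type, with black points for the brightest probe set, bars for 1 SD of a single probe set's ratio at that signal, and blue marks for the other probe sets with a ratio (the triangle is a lower bound). Grhl3 at 2.07 and all 3 Ehf readings lie above the upper dotted line at 2-fold, Cebpb lies across the lower one, and the Klf5 readings stand 1.28 apart.

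Cebpa and Cebpb are also factors of myeloid cells, fat cells and sebaceous gland cells. Of 12 neutrophil and macrophage markers, 7 were above background on the array labelled VEGF and 8 on the wild-type array. The summed signal over the 12 was 330 on the array labelled VEGF and 348 on the wild-type array. Of the 8 with a ratio, 0 were counted at 2-fold. The ratios of Adgre1, Fcer1g and Tyrobp, above background on the wild-type array only, are bounds. Whether these genes were 2-fold lower is therefore not known. Itgam and Elane were below background on both arrays. Of 7 sebocyte markers on the array, 6 were above background on each array. Of these 6, 3 were at least 2-fold lower and 0 higher, beside 8.54% and 3.87% of all genes. The summed signal over the 7 was 1770 on the array labelled VEGF and 2193 on the wild-type array. Of 5 fat cell markers, Adipoq, Lep and Cidec were below background on both arrays, while Fabp4, a fatty acid carrier gene and by far the brightest of the 5, was 2.84-fold lower, with a signal of 1649 on the array labelled VEGF and 4689 on the wild-type array. Its other probe sets with a ratio gave -2.11 and -1.15. Pparg, which sebocytes also express, was 3.19-fold lower. The 3 lower sebocyte markers were Elovl3 (5.50-fold), Scd1 (2.25-fold, with a log2 ratio of -0.62 by its other probe set) and Pparg. Of the 6 sebocyte markers with a ratio, 5 were below 0 and 1, Fasn, was above 0. Fasn had a signal of 684 on the array labelled VEGF and 365 on the wild-type array (log2 ratio 0.90). The part of sebaceous or fat cells in the Cebpa and Cebpb values was not tested.

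Of 35 relatives of the members in the same gene families with a ratio, 1 reached 2-fold on the higher side and 5 on the lower, beside 3.87% and 8.54% of all genes, and the median log2 ratio was -0.23. The higher one was Ovol2. Klf13 and Klf9 were just short of 2-fold lower by their brightest probe sets (log2 ratios of -0.99 and -0.97). The other Klf13 probe set with a ratio gave -0.77, and the other Klf9 probe sets gave values between -1.40 and 0.34. Of the lower ones, Cebpd, an acute-phase C/EBP gene, had a signal of 218 on the array labelled VEGF and 530 on the wild-type array (2.43-fold lower), but its other probe set gave -0.01. Tfcp2, of the CP2 branch of the grainyhead family, was 2.41-fold lower at 20.3 on the array labelled VEGF and 48.9 on the wild-type array. Klf15, Spi1 and Elf4 were above background on the wild-type array only, which bounds their ratios at 2.38-, 2.58- and 2.01-fold lower or more. With the wild-type background used on both arrays these bounds shrink to 1.36-, 1.48- and 1.15-fold. Of 14 Krüppel-like relatives 11 were below 0, with a median of -0.26, but 0.06 with the offset of 50. Of 14 ETS relatives 8 were above 0, with a median of 0.03, and of 3 C/EBP relatives none was. Klf4, the Krüppel-like factor required for the mouse skin barrier, had a signal of 4832 on the array labelled VEGF and 4825 on the wild-type array.

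Of 26 other transcriptional regulators of epidermis with a ratio, 1 reached 2-fold on the higher side and 6 on the lower, beside 3.87% and 8.54% of all genes, and the median was -0.62. These values depended on the scale: 1 was at least 2-fold lower with the offset of 50 (median -0.06), and with poly(A) scaling 5 were higher and 0 lower (median 0.28). The higher one, Zfp750, a zinc finger factor of terminal differentiation, had a signal of 226 on the array labelled VEGF and 106 on the wild-type array (2.14-fold). Prdm1, a repressor active in late differentiation, had 129 on the array labelled VEGF and 70.5 on the wild-type array (log2 ratio 0.87). The lower ones were Bcl11b (2.90-fold, with a signal of 374 on the array labelled VEGF and 1085 on the wild-type array), Gata3 (2.72-fold), Barx2 (2.49-fold), Maf (2.36-fold), Pou3f1 (2.26-fold) and, below background on the array labelled VEGF, Msx2 (at least 3.26-fold, or 1.86-fold with the wild-type background on both arrays). Gata3 and Msx2 are also expressed in the hair follicle, and the part of follicle cells in their values was not tested.

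Genes reported as targets of the member factors in mouse or human epithelia were examined next. Many of them belong to the cornified envelope and to junctions, and several are reported for more than 1 factor, so they do not tell the factors apart. Of 14 reported grainyhead targets with a ratio, 3 reached 2-fold on the higher side and 1 on the lower, beside 3.87% and 8.54% of all genes. Their median log2 ratio was 0.28. Tgm1, the transglutaminase gene bound by Grhl3, had a signal of 582 on the array labelled VEGF and 192 on the wild-type array (3.03-fold higher). The tight junction gene Cldn4 was 5.65-fold higher, and the third was Ovol2. Arhgef19, a RhoA exchange factor gene linked to Grhl3 in mouse wound repair, was 2.84-fold lower at 27.0 on the array labelled VEGF and 76.8 on the wild-type array. Rab25 (1.995-fold) and Spint1 (1.88-fold) were higher but short of 2-fold. Esrp1, a splicing regulator gene of epithelia, and Cdh1, the E-cadherin gene, had log2 ratios of 0.04 and 0.37.

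Of 6 reported Elf3 or Ehf targets with a ratio, 5 reached 2-fold on the higher side and 1 on the lower, beside 3.87% and 8.54% of all genes. Their median log2 ratio was 1.92. The higher ones were Tgm3 (7.12-fold), Sprr1a (5.84-fold), Krt8 (4.39-fold), Krt4 (3.27-fold) and Sprr1b (3.15-fold), which encode a transglutaminase, small proline-rich envelope proteins and keratins of inner epithelia. The lower one was Lcn2, the lipocalin-2 gene, with a signal of 80.7 on the array labelled VEGF and 399 on the wild-type array (4.95-fold). Flg, the filaggrin gene, and Muc1 were below background on both arrays.

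The reported C/EBP targets split. Of 9, 5 reached 2-fold on the higher side and 2 on the lower, beside 3.87% and 8.54% of all genes. Their median log2 ratio was 1.003. The differentiation genes Lor (3.60-fold), Krt1 (2.94-fold, with a signal of 1124 on the array labelled VEGF and 382 on the wild-type array), Dsc1 (2.39-fold), Cdsn (2.28-fold) and Sbsn (2.00-fold) were higher, while Krt10 and Ivl had log2 ratios of 0.12 and -0.18. The acute-phase genes Lcn2 and Saa3 (2.19-fold, with a signal of 36.2 on the array labelled VEGF and 79.1 on the wild-type array) were lower. The lower count was 1 with the offset of 50, quantile or loess normalization, a stricter signal filter or poly(A) scaling. The higher count was 4 with the offset of 50, quantile normalization or the stricter filter, and 6 with poly(A) scaling. Of 9 reported Klf5 or Ovol1 targets, 0 reached 2-fold on the higher side and 1 on the lower, beside the same 3.87% and 8.54%. Their median log2 ratio was -0.60. The median was -0.29 with the median over probe sets, -0.18 with the offset of 50 and 0.30 with poly(A) scaling. The list pools genes that Ovol1 represses with genes reported for Klf5, so its counts and median describe neither factor. Ccnd1, the cyclin D1 gene, had a log2 ratio of 0.82 by its brightest probe set and 1.005 and 1.45 by the others, and was the 1 gene at least 2-fold higher with the median over probe sets. The lower one was Zeb1, the gene of a mesenchymal transition factor that Ovol1 represses, with a signal of 5.21, below background, on the array labelled VEGF and 25.5 on the wild-type array, at least 2.25-fold lower, or 1.28-fold with the wild-type background on both arrays. Myc, also repressed by Ovol1 in mouse epidermis, had a log2 ratio of -0.23.

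Markers of other cells were read on the same arrays. Of 4 simple-epithelial keratins with a ratio, 3 were at least 2-fold higher (Krt18 at 9.14-fold, Krt8, which is also in the Elf3 or Ehf target list, and Krt19 at least 3.40-fold), with a summed signal over 5 keratins of 1750 on the array labelled VEGF and 269.9 on the wild-type array. Of 8 fibroblast markers, 2 were at least 2-fold higher (Col1a2 at 2.91-fold and Col3a1 at 2.52-fold) and 1, Thy1, 2.31-fold lower, and the summed signal was 2702 on the array labelled VEGF and 1214 on the wild-type array. Of 8 endothelial markers, 5 were above background on the array labelled VEGF and 2 on the wild-type array. The summed signal over the 8 was 164 on the array labelled VEGF and 114 on the wild-type array. Of the 5 with a ratio, 0 were counted at 2-fold. The ratios of Pecam1, Emcn and Cldn5, above background on the array labelled VEGF only, are lower bounds. Whether these genes were 2-fold higher is therefore not known. The part of these other cells in the values of the members was not tested.

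**Figure D3:**
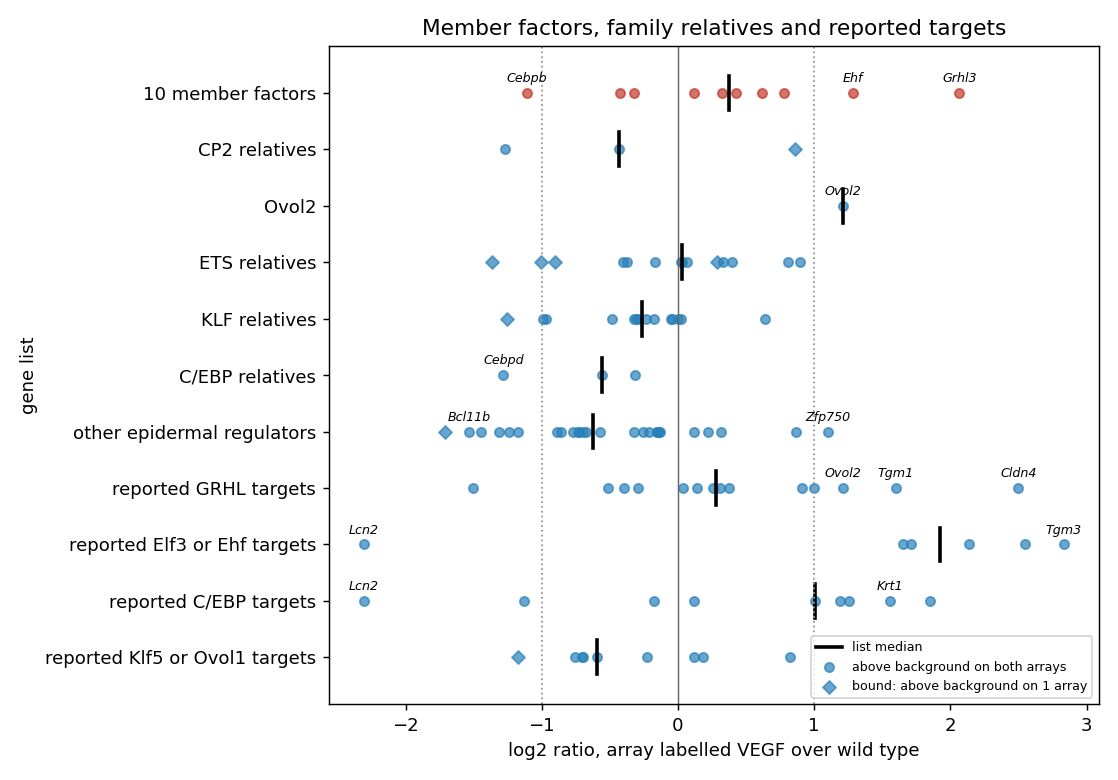
Log2 ratio, the array labelled VEGF over wild type, of each gene in the member list (red), the families' relatives, other epidermal regulators and reported targets (blue), 1 point per gene at its brightest probe set, with black bars for list medians, dotted lines at 2-fold and diamonds for bounds. The members' median lies at 0.37, that of other epidermal regulators at -0.62, and that of the reported Elf3 or Ehf targets at 1.92.

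Grhl3 and Ehf kept at least 2-fold higher values under each of 10 other settings of background, normalization and probe set choice, between 1.98 and 2.11 for Grhl3 and between 1.23 and 1.33 for Ehf on the log2 scale. Several of these settings could hardly change a member, since the brightest member probe sets lay well above background. Other floors, no background filter, fewer probe sets and a stricter signal filter returned each member's value as deposited. The median over probe sets could not change Grhl3, which has only 1. Ovol1 ranged between 0.70 and 1.06 and was past 2-fold in 1 of the 10, the offset of 50. Cebpb was at least 2-fold lower in 8 of the 10. Grhl2 changed sign in 1 of them, the offset of 50 (0.06), and Klf5 in 1, the median over probe sets (-0.52). Scaled to the poly(A) controls, 7 members were at least 2-fold higher and 0 lower, where 4753 genes of all were at least 2-fold higher, and Grhl2 and Cebpa changed sign (0.58 and 0.48).

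**Figure D4:**
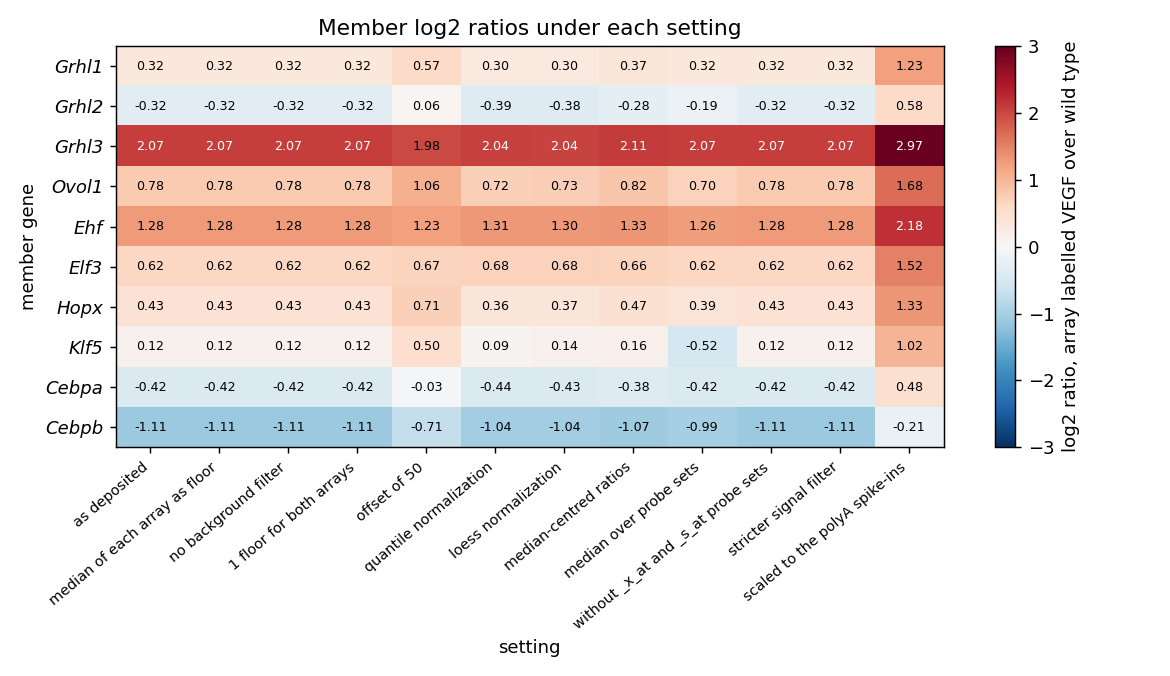
Log2 ratio of each member gene, the array labelled VEGF over wild type, as deposited and under each other setting, with red for higher and blue for lower on the array labelled VEGF. The Grhl3 and Ehf rows stay red throughout, the Cebpb row stays blue, palest at -0.21 with poly(A) scaling, and the Klf5 row turns blue with the median over probe sets (-0.52).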

How the data were processed

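Per the submitters' processing notes, the authors made the deposited log2 values with MAS5. Its version and scaling target are not stated there. After undoing the log, each array had the same mean signal, 100.04, once 2% was trimmed from either end. Labels state 100 ng of total RNA per sample. Probe sets were named from the platform annotation, using only those with exactly 1 gene; 932 had several and 9211 none. The gene IDs and symbols of all 10 members match the RefSeq gene table of GRCm38.p6. Background was the 90th percentile of the receptor probe sets. Signals below it were raised to it, a gene was represented by its brightest probe set (by mean log2 signal), and a ratio with 1 array above background is a bound, dropped where it fell on the wrong side of 0. A gene was counted at 2-fold; no test was possible. The number of arrays, the disagreement between probe sets of a gene and, near background, the signal limit the precision. The members and lists were chosen with earlier results of these data known. Named genes were all members and, per list, those at least 2-fold apart (at most 6 a list), with the others named chosen after their values were seen. The script was tested on simulated data. Python 3.11.15, pandas 2.3.3, numpy 2.4.6, statsmodels 0.14.6 and matplotlib 3.10.9 were used.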

Additional observations from a re-analysis of the deposited data

How the results depend on the processing

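The 10 planned settings were compared with the values as deposited: other floors, no background filter, an offset of 50 on median-matched arrays, loess or quantile normalization, the median over probe sets, ratios centred on their median, fewer probe sets and a stricter signal filter. Scaling to the poly(A) controls was chosen after seeing the data. The count of members at least 2-fold lower was 1 as deposited, 0 with the offset, 0 with the median over probe sets and 0 with poly(A) scaling. The count at least 2-fold higher was 2 as deposited, 3 with the offset and 7 with poly(A) scaling. The members' median log2 ratio was 0.37 as deposited, 0.62 with the offset and 1.27 with poly(A) scaling, where the median of all genes was 0.11 and 0.86. The last 2 settings shift the whole array labelled VEGF upward by construction. No paired analysis was possible because each genotype had 1 array. Signals near background limit Grhl2's dimmer probe sets and the bounds. Present or absent calls and single-probe intensities were not used here.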
